A study of Mus musculus with 7 samples.

Results

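Expression of 10 astrocyte genes was examined in the cerebral cortex of mice at postnatal day 7. The genes were selected by symbol as the rows of the deposited expression table named Slc1a2, Slc1a3, Gja1, Gjb6, Aqp4, Aldh1l1, Aldoc, S100b, Gfap and Fgfr3, and all 10 were found among its 56941 rows. The study compared 3 samples from mice with the P213L variant of Hnrnph2 with 4 wild-type (WT) samples. Hnrnph2 is an X-linked gene for an RNA-binding protein that acts in splicing, and the series asks how the variant affects oligodendrocytes and myelination. The labels give neither the sex, strain and zygosity of the mice nor the way the variant was introduced. Nor do they tie each sample to an animal of its own. The p-values therefore reflect how far these samples scatter, and that scatter may be technical.

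Astrocytes are the glial cells that clear transmitter and ions from around synapses, supply neurons with metabolites and cover blood vessels with their endfeet. Slc1a2 (GLT-1) and Slc1a3 (GLAST) take up glutamate, Gja1 (connexin 43) and Gjb6 (connexin 30) form the gap junctions that couple astrocytes to each other, and Aqp4 is the water channel of the endfoot. Aldh1l1, a folate enzyme, Aldoc, a glycolytic aldolase, S100b, a calcium-binding protein, Gfap, an intermediate filament protein, and Fgfr3, a growth factor receptor, are used to identify the cells. In rodent cortex astrocytes multiply and mature during the first postnatal weeks. Slc1a3 is prominent in immature cells, while Slc1a2 and Gjb6 increase as they mature.

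Values are TPM, read counts divided by gene length and scaled to the same total in every library. The read depth behind them, estimated from the spacing of the low values and gene lengths, was 71.2 to 79.4 M counted units in P213L and 57.2 to 72.5 M in WT (M, 1000000). By the same estimate the lowest value of any of the 10 genes in any library rested on 859 units. WT replicate 3 stood apart: over 17582 tested genes it correlated with each other library at 0.943 to 0.949, and those 6 correlated among themselves at 0.981 or more. It had 28367 genes above 0, against 31387 to 32526. Fold changes of the genes named are therefore also given without it.

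All 10 genes were expressed in every sample, and their order by level was almost the same in both groups. By group mean the order was Slc1a2, Aldoc, Gfap, Slc1a3, Aqp4, Aldh1l1 and Gja1 in P213L and in WT alike. Fgfr3 came eighth and S100b ninth in P213L, while S100b came eighth and Fgfr3 ninth in WT, and Gjb6 was last in both. Over the 7 samples the ranges of neighbours in the WT order overlapped except at 3 steps, between Aldoc and Gfap, between Slc1a3 and Aqp4 and between Fgfr3 and Gjb6. The summed level of the 10 genes was 1182 to 1249 TPM in P213L. In WT it was 1017 TPM in replicate 3 and 1288 to 1479 TPM in the other 3 samples. The sums thus overlapped between the groups over all 7 samples, and their largest parts were Slc1a2 and Aldoc, at 322 and 285 TPM on average. In bulk tissue, a change in the number of cells of a type and a change in RNA per cell cannot be told apart.

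**Figure D1:**
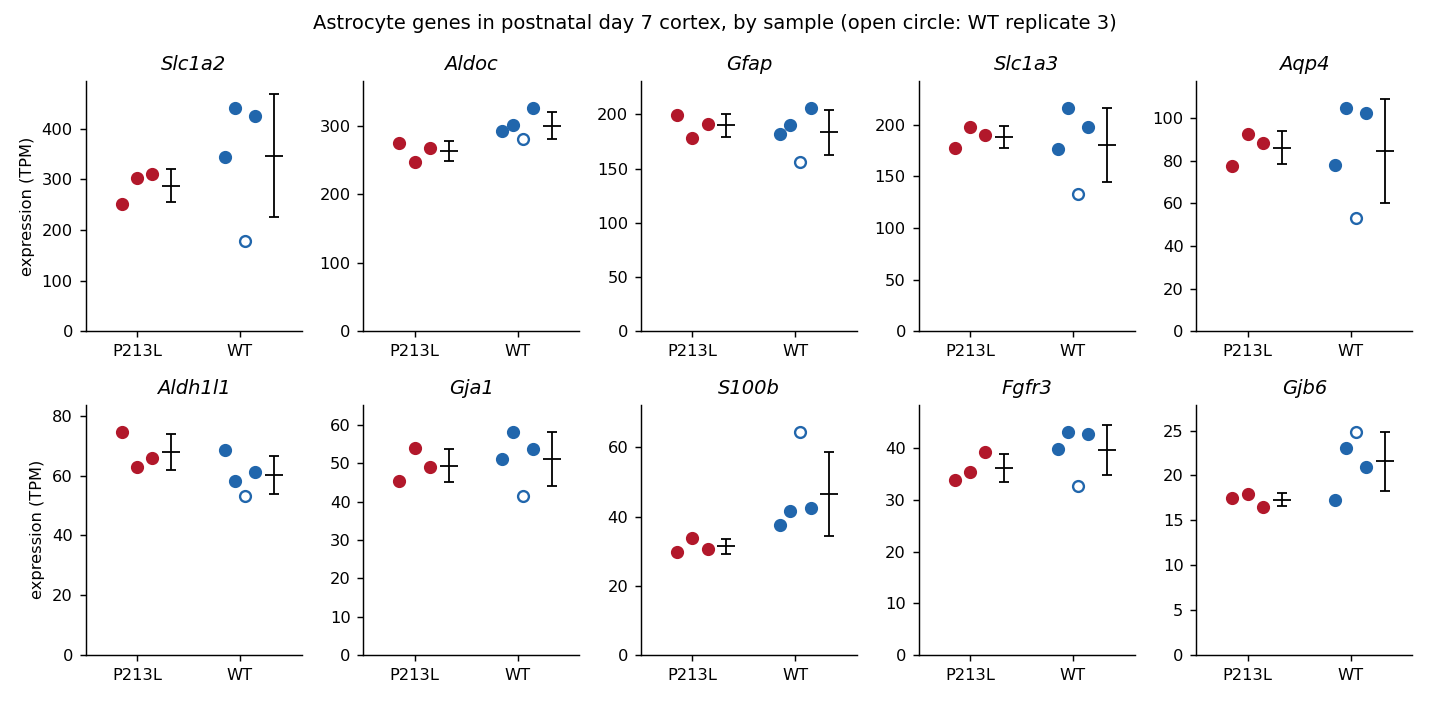
Expression in TPM (vertical axes, from 0) of the 10 astrocyte genes in each P213L sample (red, n = 3) and each WT sample (blue, n = 4), with the group mean and SD in black; the open circle is WT replicate 3. For S100b and Aldoc every P213L point lies below every WT point. The open circle is the lowest of the 7 points for Slc1a2, Gfap, Slc1a3, Aqp4, Aldh1l1, Gja1 and Fgfr3, and the highest for S100b and Gjb6.

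None of the 10 genes passed adjustment over all genes tested. In limma on log2(TPM + 0.5), 0 of 17582 genes (0%) had an adjusted p under 0.05, and the smallest adjusted p among the 10 was 0.827. At an unadjusted p under 0.05 there was 1 of the 10, S100b, which was lower, against 3.74% of all genes (1.38% lower and 2.36% higher in P213L). Groups did not overlap for 2 of the 10, S100b and Aldoc, both lower in P213L, against 8.69% of all genes (2.75% lower and 5.94% higher). Higher genes made up 63.2% of those past the unadjusted level, but 51.6% after scaling by the median of ratios, 49.4% after quantile normalization and 53.2% without mitochondrial genes. The median log2 fold change of the 10 (P213L over WT) was -0.08, with 6 lower and 4 higher, and the median of all tested genes was 0.07.

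Without WT replicate 3 the fold changes of 9 of the 10 genes were below 0, with a median of -0.18 against -0.00099 for all tested genes. At an unadjusted p under 0.05 in limma, 4 were lower, Slc1a2, Aldoc, S100b and Fgfr3. In that comparison 8.65% of all genes were past this level, 3.95% lower and 4.7% higher in P213L. The same 4 genes did not overlap between the groups, against 14.2% of all genes, 6.83% being lower. Still 0 genes passed adjustment (0%), and the smallest adjusted p among the 10 was 0.464. Other libraries moved these counts as well: Gjb6 and S100b were past an unadjusted p of 0.05 without WT replicate 1, against 8.95% of all genes, and 4 of the 10 then did not overlap, against 25% of all genes. Leaving out P213L replicate 1 or P213L replicate 3, 0 of the 10 were past that level, against 1.53% and 1.8% of all genes. With sample weights estimated by limma, 3981 genes (22.6%) passed adjustment, among them Slc1a2, Gjb6, Aldoc and S100b, and 39.6% of all genes were past an unadjusted p of 0.05, among them 8 of the 10. Those weights ran from 1.00 to 6.90 in P213L and from 0.043 in WT replicate 3 to 5.24 in WT replicate 4, so a few libraries carried most of that fit.

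**Figure D2:**
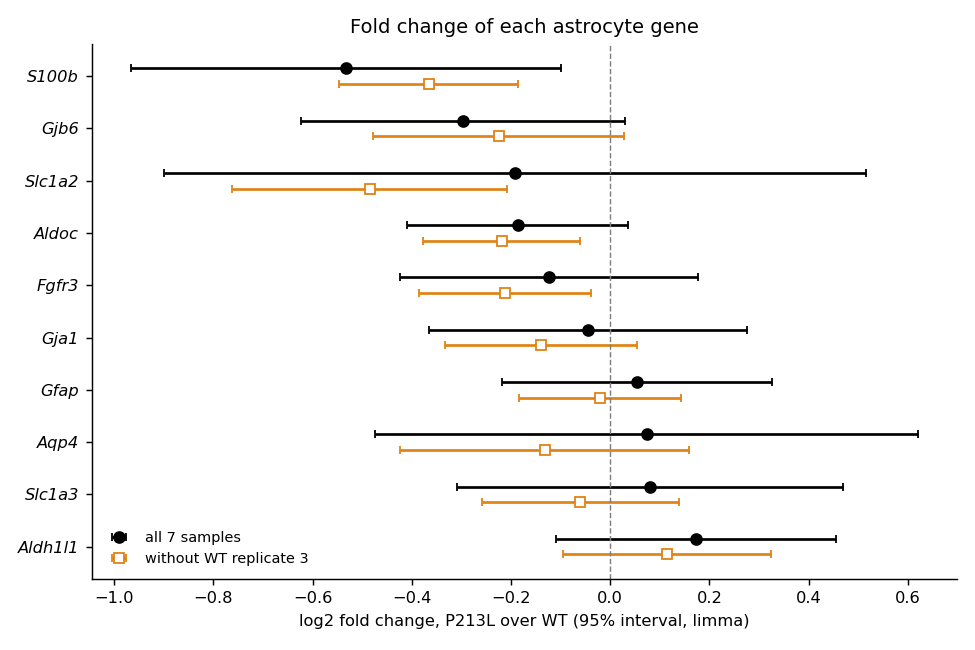
Log2 fold change of P213L over WT (horizontal axis) for each of the 10 astrocyte genes, with its 95% interval from limma, over all 7 samples (black circles) and without WT replicate 3 (orange squares). Over all samples only the interval of S100b (-0.97 to -0.10) lies wholly below 0; without WT replicate 3 those of S100b, Slc1a2, Aldoc and Fgfr3 do.

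Slc1a2, the main glutamate transporter of mature forebrain astrocytes (mm10, chromosome 2, 102658659 to 102790784, plus strand), stood at 251, 302 and 310.0 TPM in P213L. In WT it stood at 344, 442, 178 and 426 TPM in replicates 1 to 4. All 3 P213L values thus lay below 3 of the WT values and above that of WT replicate 3. On the log2 scale P213L differed from WT by -0.19 ± 0.31 (SE), with an adjusted p of 0.855 in limma and an exact permutation p of 0.629. Without WT replicate 3 the means were 288 ± 32.0 TPM in P213L and 404 ± 52.3 TPM in WT (SD, n = 3 each). The log2 difference was then -0.49 ± 0.12 (SE), with a limma adjusted p of 0.497. Of the 10 genes it had the most negative fold change in that comparison. The antisense Gm13872 covers 1.44% of the exon bases of Slc1a2.

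Slc1a3, the transporter that radial glia and young astrocytes already carry (mm10, chromosome 15, 8634124 to 8710764, minus strand), stood at 177, 198 and 190.0 TPM in P213L, against 177, 216, 133 and 197 TPM in WT. The groups overlapped, and WT replicate 3 was again the lowest sample. Its log2 fold change of 0.08 ± 0.17 (SE) had a limma adjusted p of 0.885, with a 95% interval of -0.31 to 0.47. It was -0.0085 with median-of-ratios scaling and -0.060 without WT replicate 3, so no direction held.

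Both transporters have paralogs with other sites of expression. Slc1a1, a neuronal glutamate transporter, stood at 26.2 ± 3.28 TPM in P213L and 29.0 ± 2.44 TPM in WT (SD, n = 3 and 4). Slc1a6, best known from cerebellar Purkinje cells, stood at 31.0 to 32.1 TPM in P213L and 23.8 to 28.9 TPM in WT, without overlap (log2 fold change 0.26 ± 0.11, SE; limma adjusted p = 0.827). The log2 fold change of Slc1a1 was -0.15, and leaving out WT replicate 3 left it at -0.15 and Slc1a6 at 0.24. Slc1a7 was below the mean of 1 TPM needed for the test.

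The RefSeq stretch of 250 bases before the start of Slc1a3 (GRCm38.p6, the mm10 build, chr15:8710808-8711057, minus strand) is shown beside those of S100b and Gfap. S100b had the lowest fold change of the 10 over all samples, while Slc1a3 and Gfap were among those near 0. Capitals mark matches, on either strand, to any of 5 motifs. The TATA box was searched as TATAAA. The STAT motif was searched as TTCNNNGAA. The half-site of nuclear factor I was searched as TTGGC. The GC box was searched as GGGCGG, and the CCAAT box by those letters. The nuclear factor I and CCAAT motifs share the letters TTGG on opposite strands and can overlap.
Slc1a3: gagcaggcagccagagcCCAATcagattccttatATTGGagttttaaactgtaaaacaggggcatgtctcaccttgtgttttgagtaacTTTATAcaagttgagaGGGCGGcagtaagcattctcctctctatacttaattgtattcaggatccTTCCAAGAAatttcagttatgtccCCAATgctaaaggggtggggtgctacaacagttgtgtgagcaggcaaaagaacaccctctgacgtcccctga
S100b: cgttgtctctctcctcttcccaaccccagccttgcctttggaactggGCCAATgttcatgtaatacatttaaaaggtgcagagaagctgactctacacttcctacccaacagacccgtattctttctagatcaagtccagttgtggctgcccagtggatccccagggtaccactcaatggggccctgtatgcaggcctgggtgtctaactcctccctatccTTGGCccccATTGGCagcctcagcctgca
Gfap: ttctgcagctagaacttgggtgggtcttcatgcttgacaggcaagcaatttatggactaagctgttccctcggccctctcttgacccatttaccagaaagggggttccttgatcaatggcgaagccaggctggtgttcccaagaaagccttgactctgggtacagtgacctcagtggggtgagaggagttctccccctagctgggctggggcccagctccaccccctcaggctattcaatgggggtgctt
The S100b stretch (chr10:76253586-76253835, plus strand) holds 3 nuclear factor I half-sites, 2 of which overlap its 2 CCAAT matches. The Slc1a3 stretch holds 3 CCAAT matches and 1 match each to the TATA box, the STAT motif and the GC box. The Gfap stretch (chr11:102897201-102897450, minus strand) holds none of the 5 motifs. Neither do those of Gja1 and Gjb6, not shown, whose log2 fold changes were -0.04 and -0.30. Over the 32851 promoter stretches of the same length, 41.5% hold the nuclear factor I half-site, 33.9% CCAAT, 32.7% the GC box, 12.4% the TATA box and 7.02% the STAT motif. A match describes the letters only, binding was not measured, and a link of motifs to fold changes was not tested.

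Of the gap junction genes, Gja1 (mm10, chromosome 10, 56377330 to 56402513, plus strand), the connexin already present in immature astrocytes, stood at 45.3, 53.9 and 49.0 TPM in P213L. In WT it stood at 51.2, 58.3, 41.6 and 53.8 TPM. The groups overlapped, with a log2 fold change of -0.04 ± 0.14 (SE) and a limma adjusted p of 0.920. It turned to 0.021 without WT replicate 2 and to 0.015 without P213L replicate 1, and was -0.14 without WT replicate 3.

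Gjb6 (mm10, chromosome 14, 57123303 to 57133611, minus strand), the connexin of maturing astrocytes, had the lowest level of the 10. It stood at 17.5, 17.9 and 16.5 TPM in P213L and at 17.3, 23.1, 24.9 and 21.0 TPM in WT. The P213L values lay close together and below 3 WT samples, while WT replicate 1 lay among them. The difference was -0.30 ± 0.14 on the log2 scale (SE), with a limma adjusted p of 0.827 and an exact permutation p of 0.114. It was -0.23 without WT replicate 3.

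Among 10 other connexins and pannexins, all tested, 1 was past an unadjusted p of 0.05 in limma, against 3.74% of all genes (1.38% lower). This was Gjc3 (connexin 29), a gene of oligodendrocytes and Schwann cells, at 3.91 to 5.28 TPM in P213L and 5.33 to 7.56 TPM in WT (log2 fold change -0.43 ± 0.16, SE; limma adjusted p = 0.827). Gjb2 (connexin 26), which astrocytes and meningeal cells carry, had a log2 fold change of 0.31 ± 0.15 (SE). The neuronal Gjd2 had 0.12, the endothelial Gja4 0.14 and Gja5 -0.18, and Gjc1 0.14. The pannexins Panx1 and Panx2 had 0.22 and 0.17. Gjb1 had 0.09, which turned to -0.013 with quantile normalization. With WT replicate 3 left out the values were -0.51 for Gjc3, 0.24 for Gjb2, 0.04 for Gjd2, 0.20 for Gja4, -0.29 for Gja5, 0.036 for Gjc1, 0.12 for Panx1, 0.041 for Panx2 and 0.12 for Gjb1. Gjc3 was again the 1 of these past an unadjusted p of 0.05, against 8.65% of all genes (3.95% lower).

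Aqp4 (mm10, chromosome 18, 15389496 to 15410982, minus strand) stood at 77.7, 92.7 and 88.4 TPM in P213L, against 78.1, 105, 53.1 and 102 TPM in WT. The P213L samples lay inside the WT range. A log2 fold change of 0.07 ± 0.24 (SE) had a limma adjusted p of 0.923, with a 95% interval of -0.47 to 0.62, so a difference of either sign within those bounds was not resolved. It was -0.015 with median-of-ratios scaling and -0.13 without WT replicate 3. The other aquaporins tested, Aqp1, Aqp9 and Aqp11, averaged 1.22 to 8.66 TPM in P213L and 1.24 to 8.19 TPM in WT. Aqp1, which the choroid plexus expresses, reached 8.97 TPM in WT replicate 2, while its highest value elsewhere was 3.83 TPM. It was among the genes whose direction turned, with 0.13 over all samples and -0.14 without WT replicate 3. Aqp9 had -0.02 and -0.037 in the same comparisons, and Aqp11 0.09 and -0.021.

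S100b (mm10, chromosome 10, 76253853 to 76261159, plus strand) had the most negative fold change of the 10 over all samples. It stood at 29.7, 33.9 and 30.6 TPM in P213L. In WT it stood at 37.7, 41.7, 64.6 and 42.3 TPM, so the groups did not overlap, with P213L below, and WT replicate 3 was the highest sample. P213L less WT came to -0.53 ± 0.19 on the log2 scale (SE), with an adjusted p of 0.827 in limma and an exact permutation p of 0.0571. Its 95% interval ran from -0.97 to -0.10. Without WT replicate 3 the means were 31.4 ± 2.19 TPM in P213L and 40.6 ± 2.54 TPM in WT (SD, n = 3 each). The log2 difference was then -0.37 ± 0.077 (SE), with a limma adjusted p of 0.464.

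S100b is also made by cells of the oligodendrocyte lineage, and some markers of myelinating oligodendrocytes were lower in P213L too. The summed level of 10 such markers was 262 to 277 TPM in P213L and 334 to 389 TPM in WT, also without overlap. Most abundant were Cnp and Mbp, both myelin genes, which averaged 98.2 and 90.2 TPM over the 7 samples. Of the 8 tested, 5 were lower at an unadjusted p under 0.05 in limma, Cnp and Mbp among them, against 1.38% of all genes. Cldn11 (-0.16), Mal (-0.06) and Mog (0.08) were not past that level. Without WT replicate 3 they had -0.11, -0.12 and 0.0020, and again 5 of the 8 were lower, against 3.95% of all genes. Aspa and Ermn were below the level needed for the test. The part of oligodendrocytes in the S100b difference was not tested.

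The other S100 genes did not separate the groups over all samples. Of 6 tested, 0 were past an unadjusted p of 0.05 in limma, against 3.74% of all genes, and 0 passed adjustment. Fold changes were below 0 for 5, among them S100a13 (-0.51 ± 0.24), S100a6 (-0.42 ± 0.25), S100a1 (-0.31 ± 0.21) and S100a16 (-0.25 ± 0.23, SE). For each of these 4, WT replicate 3 was the highest sample. Leaving it out brought them to -0.30 for S100a13, -0.20 for S100a6, -0.12 for S100a1 and -0.036 for S100a16. S100a13, lower, and S100a10, higher, were then past an unadjusted p of 0.05, against 8.65% of all genes (3.95% lower and 4.7% higher). S100a13 stood at 40.5 to 49.0 TPM in P213L and 48.3 to 99.5 TPM in WT. S100a10 had -0.09, which turned to 0.13 without WT replicate 3, and S100a11 had 0.11 over all samples and 0.17 without it.

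Aldoc (mm10, chromosome 11, 78322968 to 78327781, plus strand), the brain aldolase of glycolysis, was the other gene without overlap. It stood at 276, 247 and 268 TPM in P213L and at 293, 302, 280.2 and 326 TPM in WT. The gap was small, since the highest P213L value was 276 TPM and the lowest WT value, in replicate 3, 280.2 TPM. This came to -0.19 ± 0.10 on the log2 scale (SE), with an adjusted p of 0.827 in limma and an exact permutation p of 0.0571, and to -0.22 without WT replicate 3. Its ubiquitous paralog Aldoa, on 2 rows of the table and read from the more abundant one, stood at 639 to 657 TPM in P213L and 661 to 802 TPM in WT, also without overlap, with a log2 fold change of -0.13 ± 0.10 (SE), or -0.067 without WT replicate 3. Pseudogene copies of Aldoa leave its value uncertain.

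Aldh1l1 (mm10, chromosome 6, 90486427 to 90600203, plus strand) was the 1 gene of the 10 with a fold change above 0 both with and without WT replicate 3. It stood at 74.7, 62.9 and 65.9 TPM in P213L, against 68.5, 58.1, 53.0 and 61.2 TPM in WT. The groups overlapped through WT replicate 1, and the log2 fold change of 0.17 ± 0.12 (SE) had a limma adjusted p of 0.827. It was 0.11 without WT replicate 3. Exons of other genes cover part of it, among them the opposite-strand Gm15756 over 11.05% of its exon bases. The kit keeps strand, but no source used here says whether counting used it. The mitochondrial paralog Aldh1l2 stood at 8.46 to 10.48 TPM in P213L and at 1.49 TPM in WT replicate 3 and 7.69 to 8.03 TPM in the other WT samples. Its log2 fold change was 0.75 ± 0.51 (SE), and 0.23 without WT replicate 3.

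Gfap (mm10, chromosome 11, 102887336 to 102900912, minus strand), the filament protein that increases in reactive astrocytes, stood at 199.8, 179 and 191 TPM in P213L. In WT it stood at 182, 190.1, 156 and 206 TPM. The P213L values lay inside the WT range, with a log2 fold change of 0.05 ± 0.12 (SE), a limma adjusted p of 0.887 and a 95% interval of -0.22 to 0.33. It was -0.034 with median-of-ratios scaling and -0.021 without WT replicate 3. Of the other filament genes, Nes had a log2 fold change of 0.31 ± 0.15, Ina of 0.27 ± 0.19, Synm of 0.15 ± 0.24 and Vim of 0.05 ± 0.14 (SE). Leaving out WT replicate 3 brought Nes to 0.22, Ina to 0.10, Vim to 0.15 and Synm, with its direction turned, to -0.089. Vim turned to -0.034 with median-of-ratios scaling.

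Fgfr3 (mm10, chromosome 5, 33721674 to 33737068, plus strand), a receptor of astrocytes and their progenitors, stood at 33.9, 35.4 and 39.3 TPM in P213L, against 39.8, 43.3, 32.8 and 42.7 TPM in WT. All P213L values lay below the 3 WT samples other than replicate 3. Over all samples the log2 fold change was -0.12 ± 0.13 (SE), with a limma adjusted p of 0.827. Without WT replicate 3 it was -0.21 ± 0.074 (SE), with a limma adjusted p of 0.536. The opposite-strand transcript G630022F23Rik covers 13.9% of its exon bases. The paralogs Fgfr1 and Fgfr2, used by several neural and glial cell types, had log2 fold changes of 0.29 ± 0.17 and 0.19 ± 0.22 (SE), and Fgfr1 came to 0.15 and Fgfr2 to -0.0079 without WT replicate 3. Fgfr4 was below the level needed for the test.

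The genes of 4 pairs were also compared within each sample, where library scaling cancels apart from the pseudocount. A deviation of WT replicate 3 that differs with gene length, described below, does not cancel. Aldoa is ubiquitous, so the ratio of Aldoc to Aldoa does not stand for astrocytes alone. The log2 ratio of Slc1a2 to Slc1a3 was 0.50, 0.61 and 0.71 in P213L and 0.96, 1.03, 0.42 and 1.11 in WT. P213L samples lay between WT replicate 3 and the other 3 WT samples. The mean difference was -0.27, and it was -0.42 without WT replicate 3 (exact permutation p = 0.200 with all samples, two-sided, adjusted p = 0.400 over 4 ratios). The ratio of Gjb6 to Gja1 averaged -1.48 ± 0.12 in P213L and -1.23 ± 0.35 in WT (SD, n = 3 and 4; exact permutation p = 0.171, adjusted p = 0.400). WT replicate 3 stood at -0.73 and the other WT samples at -1.54 to -1.32, and the difference of -0.25 came to -0.085 without that library. Gfap to Vim differed by 0.00056 and Aldoc to Aldoa by -0.06 (exact permutation p = 1 and 0.714), or by -0.17 and -0.15 without WT replicate 3. The smallest p that the 35 splits can give is 0.0286.

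**Figure D3:**
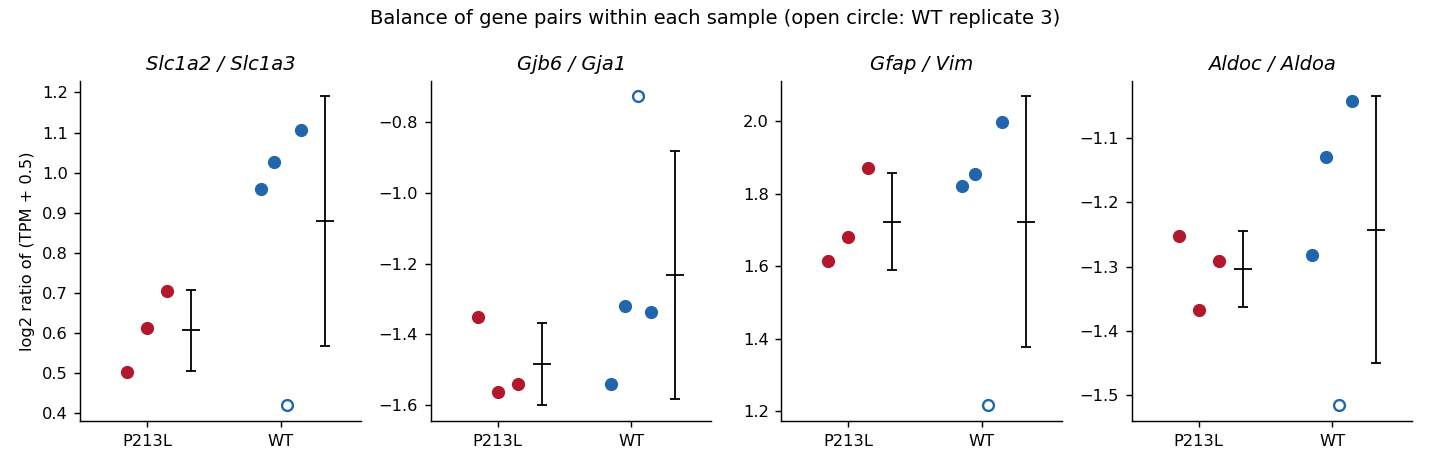
Log2 ratio of (TPM + 0.5) within each sample (vertical axes, not from 0) for 4 gene pairs, in P213L (red, n = 3) and WT (blue, n = 4), with group mean and SD in black; the open circle is WT replicate 3. For Slc1a2 over Slc1a3 the P213L samples lie at 0.50 to 0.71, below 3 WT samples at 0.96 to 1.11 and above WT replicate 3 at 0.42.

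The position of WT replicate 3 differed among the 10 genes, and its 2 highest deviations were in the 2 shortest. Its log2 value less the mean of the other 6 libraries was 0.85 for S100b (1484 bases of exon) and 0.40 for Gjb6 (2674 bases). It was -0.93 for Slc1a2 (13133 bases) and -0.76 for Aqp4 (6233 bases). The order by length was not strict: Slc1a3 (8537 bases) was at -0.53, Gja1 (10257 bases) at -0.31 and Fgfr3 (7158 bases) at -0.24, all longer than Aqp4 and nearer to 0. Aldh1l1 (4516 bases) and Gfap (4218 bases) were both at -0.29, and Aldoc (3263 bases) was at -0.02. Over all tested genes with a length the median deviation was lower in longer genes, at 0.12 in the shortest of 4 equal groups (up to 2084 bases) and at -0.67 in the longest (6277 bases or more). S100b lay at percentile 91.5 of its length group and Slc1a2 at percentile 30.3, while Fgfr3 and Gja1, in the group of Slc1a2, lay at percentiles 80.8 and 76.8. Without WT replicate 3 the median fold change of P213L over WT ran from 0.016 in the shortest group to -0.032 in the longest. Over all 7 samples that median was -0.0069 in the shortest and 0.14 in the longest. The part of length in single genes' fold changes was not tested.

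**Figure D4:**
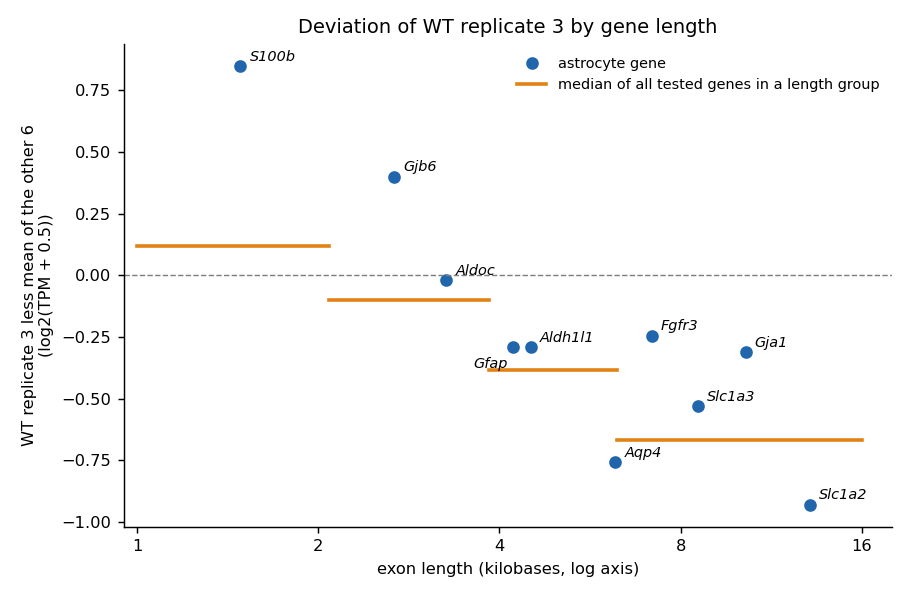
Log2(TPM + 0.5) of WT replicate 3 less the mean of the other 6 libraries (vertical axis) against exon length in kilobases (log axis) for the 10 astrocyte genes, with the median of all tested genes in each of 4 length groups (orange lines, drawn from 1 to 16 kilobases). S100b and Gjb6, among the shortest, lie above 0, and Slc1a2, the longest, lies at -0.93, while Gja1 and Fgfr3, also long, lie at -0.31 and -0.24.

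The wider astrocyte programme was read from 8 lists of other genes. Of their 99 tested genes 0 passed adjustment in limma, and 4 were past an unadjusted p of 0.05 (4.04%, against 3.74% of all genes). Groups did not overlap for 16 of the 99 genes (16.2%, against 8.69% of all genes). The median log2 fold change of the 99 was 0.05, and 0.07 for all genes. When WT replicate 3 was left out, 19 were past an unadjusted p of 0.05 (19.2%, against 8.65% of all genes), 13 lower and 6 higher, with a median of -0.03. The lists were chosen with earlier results of these data known, and these counts were not tested against other lists. For the counts of each list below, the shares of all genes at that level were 3.74% with all samples (1.38% lower, 2.36% higher). Without WT replicate 3 they were 8.65% (3.95% lower, 4.7% higher).

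Genes of amino acid handling went both ways. Glul, the glutamine synthetase that converts the glutamate taken up, stood at 509, 571 and 551 TPM in P213L. In WT it stood at 555, 741, 658 and 705 TPM. A single P213L sample reached the lowest WT sample, and the log2 fold change of -0.28 ± 0.12 (SE) had a limma adjusted p of 0.827. It was -0.29 without WT replicate 3. The glutamine transporter Slc38a5 stood at 29.4 to 32.1 TPM in P213L and 20.6 to 27.1 TPM in WT, without overlap (0.40 ± 0.13, SE). Slc1a4, a carrier of neutral amino acids, had 0.31 ± 0.17, and Slc6a9, a glycine transporter, had 0.58 ± 0.42 (SE) and 0.15 without WT replicate 3. Leaving out that library gave 0.35 for Slc38a5 and 0.17 for Slc1a4, and put 2 higher and 1 lower of the 12 genes past an unadjusted p of 0.05.

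Of the 10 genes of ion and solute transport 0 were past an unadjusted p of 0.05 in limma with all samples. Leaving out WT replicate 3, 4 were, all lower, against 8.65% of all genes (3.95% lower). Kcnj10, Kcnj16 and Ttyh1 were among the 4, and Slc15a2 and Slc12a2 were not. All 10 fold changes were then below 0 with a median of -0.18. Kcnj10, the potassium channel of astrocyte membranes, stood at 57.6 to 64.5 TPM in P213L, at 36.3 TPM in WT replicate 3 and at 66.4 to 82.7 TPM in the other WT samples. Its partner Kcnj16 had a log2 fold change of -0.18 ± 0.24, Slc15a2, a peptide carrier, of -0.24 ± 0.12, Ttyh1 of -0.19 ± 0.085 and Slc12a2, a chloride importer, of -0.09 ± 0.17 (SE). Without that library the values were -0.38 for Kcnj16, -0.19 for Slc15a2, -0.18 for Ttyh1 and -0.18 for Slc12a2, and Kcnj10 had -0.26 against -0.0065 over all samples. Slc12a2 turned to 0.0083 without WT replicate 2 and to 0.0079 without P213L replicate 1.

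The endfoot list, whose genes other cells may also carry, held 0 of 10 past an unadjusted p of 0.05 in limma. Gpr37, a receptor, had a log2 fold change of 0.29 ± 0.13, the chloride channel Clcn2 of 0.39 ± 0.21, and Agrn, the agrin of basement membranes, of 0.43 ± 0.29 (SE). Leaving out WT replicate 3 brought these to 0.21 for Gpr37, 0.22 for Clcn2 and 0.15 for Agrn, with 1 gene of the list higher and 1 lower past that level. The 13 transcription factors had a median of 0.08, with 0 past that level. Sox9, which specifies astrocytes, had 0.27 ± 0.18, Id4 0.14 ± 0.10, Lhx2 0.22 ± 0.16 and Zbtb20 0.70 ± 0.46 (SE). Zbtb20 stood at 2.82 TPM in WT replicate 3. Without that library Zbtb20 came to 0.26, Sox9 to 0.12, Id4 to 0.14 and Lhx2 to 0.094, and again 0 of the 13 were past an unadjusted p of 0.05 in limma.

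Ligands and feedback targets of growth factor receptors also held 0 of 13 past an unadjusted p of 0.05 in limma. Fgfbp3, which binds such ligands, stood at 51.1 to 54.0 TPM in P213L and 32.6 to 49.1 TPM in WT. The feedback inhibitor Spry2 stood at 67.7 to 72.2 TPM in P213L and 74.1 to 80.6 TPM in WT. Both were without overlap, in opposite directions. Etv4, a transcription factor downstream of the receptors, had a log2 fold change of 0.19 ± 0.11 and the inhibitor Spry4 of 0.23 ± 0.18 (SE). Leaving out WT replicate 3 gave 0.41 for Fgfbp3, -0.18 for Spry2, 0.17 for Etv4 and 0.082 for Spry4, with 1 gene higher and 1 lower past that level. Fgfbp3 had 0.34 and Spry2 -0.16 over all samples.

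Among secreted and phagocytic genes 0 of 12 were past an unadjusted p of 0.05 in limma. Thbs1, a thrombospondin that promotes synapses, had a log2 fold change of 0.53 ± 0.24 (SE). Sparcl1 (hevin), with the same kind of role, stood at 1309 to 1372 TPM in P213L and 1397 to 1546 TPM in WT. Cst3 and Clu, abundant secreted proteins, had -0.32 ± 0.18 and -0.19 ± 0.11 (SE), and their highest values were in WT replicate 3. Without it Cst3 came to -0.15, Clu to -0.11 and Thbs1 to 0.32, and Sparcl1 had -0.14 against -0.15 over all samples. Of the 12 genes 1 was then higher and 2 lower at an unadjusted p under 0.05.

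Other markers of astrocytes included 2 of 18 past an unadjusted p of 0.05 in limma, both lower. Fam107a stood at 19.6, 24.1 and 22.9 TPM in P213L and at 26.5, 46.0, 30.9 and 43.7 TPM in WT (log2 fold change -0.68 ± 0.21, SE; limma adjusted p = 0.827). Htra1, a secreted protease, stood at 93.5, 88.7 and 99.5 TPM in P213L and at 107, 129, 167 and 129 TPM in WT (-0.48 ± 0.15, SE; limma adjusted p = 0.827). Neither gene overlapped between the groups, and without WT replicate 3 the log2 fold changes were -0.75 for Fam107a and -0.36 for Htra1. Lcat, a lipid-modifying enzyme, had 0.23 ± 0.11 and Mfge8, a bridging protein of phagocytosis, 0.20 ± 0.11 (SE). They came to 0.17 and 0.15 without WT replicate 3, where 1 of the 18 was higher and 4 lower at an unadjusted p under 0.05.

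Immature glial genes held 0 of 11 tested past an unadjusted p of 0.05 in limma, with a median of 0.05. Pax6 had a log2 fold change of 0.30 ± 0.16, the matrix protein Tnc 0.38 ± 0.26 and Thrsp -0.35 ± 0.20 (SE). Leaving out WT replicate 3 brought Pax6 to 0.19, Tnc to 0.13 and Thrsp to -0.24, again with 0 of 11 past that level in limma. Of the 12 tested genes of reactive astrocytes, 1 was past that level. This was Ptx3, at 4.23 to 5.03 TPM in P213L and 2.79 to 3.79 TPM in WT (0.37 ± 0.15, SE; limma adjusted p = 0.827). Cd44 lay on the other side, at 4.14 to 5.51 TPM in P213L and 5.63 to 6.60 TPM in WT. Gbp2 had 0.33 ± 0.17, Hspb1 0.35 ± 0.23 and Cd44 -0.32 ± 0.14 (SE). With WT replicate 3 left out, 4 of the 12 were past an unadjusted p of 0.05, Ptx3 (0.37), Hspb1 (0.52) and S100a10 (0.13) higher and Cd44 (-0.31) lower, and Gbp2 had 0.31.

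**Figure D5:**
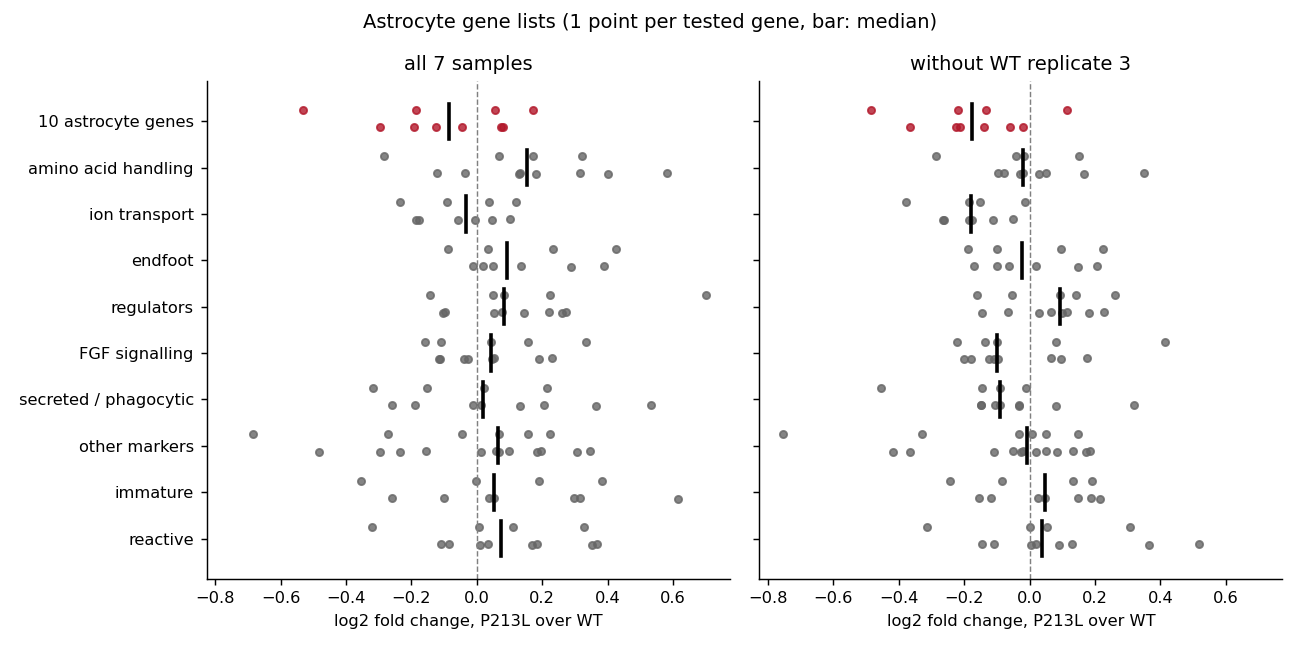
Log2 fold change of P213L over WT (horizontal axes) for each tested gene (points) of the 10 astrocyte genes (red) and of 9 other astrocyte lists (grey), with the median of each list (black bar), over all 7 samples and without WT replicate 3. The median of the 10 genes is -0.08 with all samples and -0.18 without that library, and that of the ion transport list is -0.03 and -0.18.

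Markers of other cells that could contribute reads to these genes were measured in the same samples. Every gene of the 9 lists was above 0 in every sample. Oligodendrocyte precursors summed to 606 to 655 TPM over 8 genes in P213L and 530 to 653 TPM in WT. Ependymal cells, which also carry Aqp4 and S100b, summed to 27.0 to 37.7 TPM over 7 genes in P213L and 24.5 to 29.6 TPM in WT. Neurons summed to 6782 to 7088 TPM over 10 genes in P213L and 6546 to 7226 TPM in WT. At an unadjusted p under 0.05 in limma, 1 of the 10 neuronal genes was lower, Snap25 (-0.32), against 1.38% of all genes. Of 6 ependymal genes tested 1 was higher, Foxj1 (0.59), against 2.36%. Of the 8 precursor genes 0 were past that level. Without WT replicate 3 Snap25 had -0.29 and Foxj1 0.43. Then 3 neuronal genes and 1 precursor gene were lower at that level, against 3.95% of all genes.

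The remaining lists covered immune, vascular, meningeal and choroid cells. Microglia summed to 167 to 172 TPM over 8 genes in P213L and 172 to 209 TPM in WT. All 8 microglial genes had fold changes below 0, with a median of -0.14. Of the 8, 3 were lower at an unadjusted p under 0.05 in limma, P2ry12 (-0.55), Siglech (-0.43) and Gpr34 (-0.52), against 1.38% of all genes. Without WT replicate 3 these 3 had -0.53, -0.41 and -0.47, and 2 of the 8 were lower at that level, against 3.95% of all genes. Fold changes were then below 0 for 7 of the 8, with a median of -0.15. Endothelium summed to 445 to 457 TPM over 8 genes in P213L and 418 to 573 TPM in WT, and pericytes to 281 to 300.3 TPM over 6 genes in P213L and 263 to 313 TPM in WT. Meningeal fibroblasts summed to 890 to 1144 TPM over 8 genes in P213L and 879 to 1123 TPM in WT. Ptgds, at 860.1 TPM on average over the 7 samples, made up most of that sum. Of the 8 meningeal genes 7 had fold changes above 0, with a median of 0.42. Slc6a13 (0.60) and Foxc1 (0.35) were higher at an unadjusted p under 0.05 in limma, against 2.36% of all genes. Without WT replicate 3 all 8 were above 0, with a median of 0.22, and Slc6a13 had 0.41 and Foxc1 0.28. Choroid plexus summed to 13.6 to 15.3 TPM over 7 genes in P213L and 10.9 to 13.7 TPM in WT except in replicate 2, at 1253 TPM. All 6 choroid genes tested had fold changes below 0 with and without WT replicate 3, with medians of -0.24 and -0.44. Of the endothelial, pericyte and choroid genes tested, 0 were past an unadjusted p of 0.05 in limma, with or without WT replicate 3. Of all the cell lists, the summed level without overlap was that of the oligodendrocytes. The part of these cells in the results was not tested.

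For 9 of the 10 genes the most similar profile was sought among the 99 genes of the astrocyte lists, as the smallest root mean square difference of log2 deviations over the 7 samples. Slc1a2 was nearest to Kcnj10 (0.12), Slc1a3 to Dtna (0.048), Gja1 to Aldh6a1 (0.057) and Gjb6 to Slc15a2 (0.10). Aqp4 was nearest to Dmd (0.042) and Aldoc to Spry2 (0.078). S100b was nearest to Htra1 (0.12), Gfap to Cbs (0.061) and Fgfr3 to Hepacam (0.077). The median difference over the 99 genes was 0.19 to 0.47. Each nearest value is the smallest of those differences and so lies below their median by construction. All profiles share the same libraries and depths, WT replicate 3 included.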

How the data were processed

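Fresh cortex gave RNA for libraries made with a stranded mRNA kit, as the labels' protocols state. The submitters' processing notes name HISAT2, HTSeq and mm10, without versions. Neither annotation nor gene lengths are stated there. The deposited values are TPM, 1 column per sample by the file headers, and every column totals 1000000. GENCODE vM21 (mm10) supplied gene lengths, loci and overlaps, and RefSeq (GRCm38.p6) supplied promoters, matched for 9 of the 10 genes. Depth was estimated from TPM times length on the 85.9% of rows with a unique length: up to 10 units, 95.2 to 96.1% of values fell within 0.05 of a whole or half-integer unit. Since 64.4 to 72.5% fell on whole units, no count test was run.

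Titles gave the groups. Rows averaging 1 TPM or more were fitted as log2(TPM + 0.5) with limma 3.58.1 in R 4.3.3 (mean-variance trend, two-sided, Benjamini-Hochberg over all rows, threshold 0.05, 95% intervals). Single values were tested by exact permutation over 35 splits. The fit was tested on simulated data. The 10 genes and the lists were chosen with earlier results of these data known. Genes named were those 10, the 4 tested genes of each list with the smallest p, the paralogs, the nearest profiles and some markers of other cells. A few genes that this rule names are not reported here. Overlapping genes were looked up for all 10. Alternatives were other pseudocounts, filters, scalings, moderation, sample weights, a replicate block and each sample left out. Figures used matplotlib 3.10.9.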

Additional observations from a re-analysis of the deposited data

Results flagged for a closer look

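The 10 astrocyte genes, 62 named list genes and 4 ratios were searched for a WT sample far from the other 3 WT samples. By chance this happens in about 1 group in 20. It happened for 11 of the 76 values, with WT replicate 3 as the distant sample for 10 of them. None of the 10 astrocyte genes and none of the 4 ratios was among the 11. On the scale of log2(TPM + 0.5), WT replicate 3 was lowest for Gpr37 (3.02, against 3.33 to 3.36 in the other WT samples), Tnc (4.22, against 5.13 to 5.28), Aqp11 (2.79, against 3.18 to 3.24), Aldh1l2 (1.00, against 3.03 to 3.09), Synm (4.45, against 5.31 to 5.44) and Fgfr1 (4, against 4.51 to 4.61). It was highest for Cst3 (11.1, against 10.36 to 10.43), Clu (8.40, against 8.05 to 8.09), S100a10 (8.36, against 7.46 to 7.51) and Vim (6.08, against 5.69 to 5.72). Etv4 was highest in WT replicate 1 (5.05, against 4.83 to 4.85).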

How the results depend on the processing

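Of the 10 astrocyte genes 6 kept their direction under all 18 alternatives, and of 62 named list genes 52 did. Under the alternatives other than sample weights, 0 genes passed adjustment. With sample weights 3981 did, 8 of the 10 and 53 of 99 list genes were past an unadjusted p of 0.05 (39.6% of all genes), and the directions of Slc1a3 (-0.069), Aqp4 (-0.20), Gfap (-0.079), Gjb1 (-0.059), S100a10 (0.13), S100a11 (-0.041) and Synm (-0.11) turned. With median-of-ratios scaling 2 of the 10 and 8 of the list genes were past that level (4.15% of all genes), and Slc1a3 (-0.0085), Aqp4 (-0.015), Gfap (-0.034) and Vim (-0.034) turned, as did Gjb1 (-0.013) and Aqp11 (-0.021) with quantile normalization. The causes were not tested.

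With each sample left out in turn, 0 to 4 of the 10 and 2 to 19 of the list genes were past an unadjusted p of 0.05 (1.53 to 8.95% of all genes), and groups did not overlap for 2 to 4 of the 10 (11.6 to 25% of all genes). Log2 fold changes ran from -0.060 to 0.17 for Slc1a3, -0.14 to 0.021 for Gja1, -0.13 to 0.19 for Aqp4, -0.021 to 0.11 for Gfap, -0.20 to 0.0083 for Slc12a2, -0.098 to 0.21 for Gjb1, -0.14 to 0.61 for Aqp1, -0.096 to 0.030 for Aqp9, -0.021 to 0.14 for Aqp11, -0.17 to 0.13 for S100a10, -0.037 to 0.15 for Vim, -0.089 to 0.24 for Synm and -0.0079 to 0.31 for Fgfr2. The ratio differences ran from -0.17 to 0.092 for Gfap to Vim and from -0.15 to 0.0058 for Aldoc to Aldoa.

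Whether the replicate numbers pair the samples was not settled. Same-numbered samples had deviations that correlated at 0.13, 0.17 and -0.10, the last with WT replicate 3, and so few correlations cannot decide it. P213L replicates 1 and 2 each correlated best with the WT sample of their number and P213L replicate 3 did not, as a hint from the data and not the design. With a replicate block, 500 genes and 1 of the 10 were past an unadjusted p of 0.05 and 0 genes passed adjustment. WT replicate 4 has no partner and adds nothing under the block, so that Aqp9 (0.025) and the Aldoc to Aldoa ratio difference (0.0058) turned to the values they have without it. Precision is limited by the number of samples, and the depths are estimates.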
